A study of Mus musculus with 12 samples.

Results

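The hypothalamic expression of 29 genes of the GABA system was followed across 4 pools of mouse RNA. The genes were taken by name for their roles, from a list drawn up with earlier results of these data known. They were 11 GABA-A receptor subunits, 2 GABA-rho subunits, 2 GABA-B subunits, 3 genes of GABA synthesis and vesicle loading, 4 of uptake and breakdown, 2 chloride carriers, 2 scaffold or adhesion proteins of inhibitory synapses and 3 members of the GABARAP family. Each was read from a probe set that the array annotation assigns to that gene alone, and all 29 were among the 17186 genes that reached a log2 signal of 6 on at least 3 of the 12 arrays.

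The arrays were hybridized with hypothalamic RNA of male C57Bl/6J mice aged 21 weeks, fasted overnight. ASP+CGP mice drank aspartame, a sweetener made of aspartate and phenylalanine, at 46 mg/kg of body weight from before birth and throughout life, and were also exposed early in life to CGP 39551, which blocks glutamate receptors of the NMDA type by competition, given to the dams at 5 mg/kg until postnatal day 28. ASP mice had the same aspartame without the antagonist, CGP mice had the same antagonist without aspartame, and CON mice drank plain water. RNA was pooled over the mice within each group before it was applied to 3 arrays, so a group is 1 pool read on 3 arrays. Every p-value, standard error and interval below measures the spread between arrays and not between mice. The comparisons ask how lifelong aspartame and early blockade of NMDA receptors, alone and together, bear on gene expression in the adult hypothalamus.

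GABA is the main inhibitory transmitter of the adult brain and is widely used by hypothalamic neurons. It is made from glutamate by glutamate decarboxylase, loaded into vesicles by the transporter VGAT, and acts on GABA-A receptors, which are chloride channels assembled from 5 subunits, and on GABA-B receptors, which couple to G proteins. The subunits that make up a GABA-A receptor set where it sits and how it responds, with gamma subunits typical of synapses and the delta subunit of receptors outside them, while the neuron's chloride carriers set how strongly the channel inhibits.

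Arrays of 1 pool correlated at 0.9922 to 0.9965 over all 29149 probe sets, and arrays of different pools at 0.9863 to 0.9955. Array 3 of ASP+CGP and array 3 of CON stood apart. The SD of the deviations from the mean of their own pool was 0.0996 for array 3 of ASP+CGP and 0.0903 for array 3 of CON, against 0.049 to 0.0701 for the other arrays. Both were the lowest array of their pool for 16 of the 29 members (55.2%), against 3749 of 17186 genes (21.8%). Values without the pair are given where a result rests on them. The pools also differed in markers of the hypothalamus and of other tissues. Hypothalamic markers were measured for 17 of 18 genes, and their summed linear signal was 22700 to 23500 on ASP+CGP arrays, 25800 to 26600 on ASP arrays, 25600 to 26200 on CGP arrays and 27600 to 30000 on CON arrays. Without Pomc, which the pituitary also expresses, the sums were 22100 to 22900 on ASP+CGP arrays, 22400 to 22900 on ASP arrays, 22800 to 23300 on CGP arrays and 25800 to 28000 on CON arrays, so that the treated pools lay close together and below CON. Of 8 pituitary markers, 6 were lower than CON in ASP+CGP, 8 were higher in ASP and 7 were higher in CGP, with summed signals of 4300 to 4920 on ASP+CGP arrays, 36900 to 37100 on ASP arrays, 32800 to 33400 on CGP arrays and 18000 to 19000 on CON arrays. In ASP, all measured genes of the adrenal cortex (10), adrenal medulla (6), exocrine pancreas (6) and adipocyte (7) lists were also higher than CON, and the adrenal cortex sum was 1420 to 1440 on ASP+CGP arrays, 20400 to 20800 on ASP arrays, 1470 to 1500 on CGP arrays and 1420 to 1470 on CON arrays. Some of these genes, such as Hsd3b1 (adrenal cortex), Fabp4 (adipocyte) and Cpb1 (exocrine pancreas), passed the signal filter only through the ASP arrays. For them, being measured and being high in ASP were 1 condition, so the counts in ASP were in part fixed by the filter. The part of these marker lists in the members' values was not tested. In a tissue block, fewer cells of a type and less RNA per cell cannot be told apart.

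Of the 29 genes, 9 differed between the 4 pools at an adjusted p under 0.05 (limma F test, adjusted over all genes), against 6.69% of all genes tested. They were 8 of the 11 GABA-A subunits (Gabra2, Gabra4, Gabra5, Gabrb1, Gabrb2, Gabrg1, Gabrd and Gabrq) and Slc6a12, the betaine/GABA transporter BGT-1. The other 20 genes passed the threshold in no comparison, although 6 of them (Gabre, Gabbr2, Gphn, Gabrr2, Gabra3 and Gad2) did so under at least 1 alternative way of processing. No member reached a fold change of 1.4, the cut-off of the study, in any comparison, while among all genes 1.02% were past both thresholds as higher and 0.0291% as lower in ASP than in CON, 0.0931% and 0.0175% in CGP than in CON, 0.0407% and 0.14% in ASP+CGP than in CON, 0.0349% and 1.24% in ASP+CGP than in ASP, and 0.0291% and 0.134% in ASP+CGP than in CGP. For the interaction, the difference of aspartame with the antagonist less that without it, these shares were 0.145% and 1.35%. The largest difference was a fall of Slc6a12 by 0.42 on the log2 scale in ASP+CGP. Across the 29 genes, the ASP pool had the lowest mean of the 4 for 13 genes and the ASP+CGP pool for 10. CGP had it for 1 and CON for 5. This order was not counted over all genes. Of all 17186 genes, 7500 were above CON in ASP, 8251 in ASP+CGP and 9987 in CGP. Of the 29 members, 8 were above CON in ASP, 13 in ASP+CGP and 15 in CGP.

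**Figure D1:**
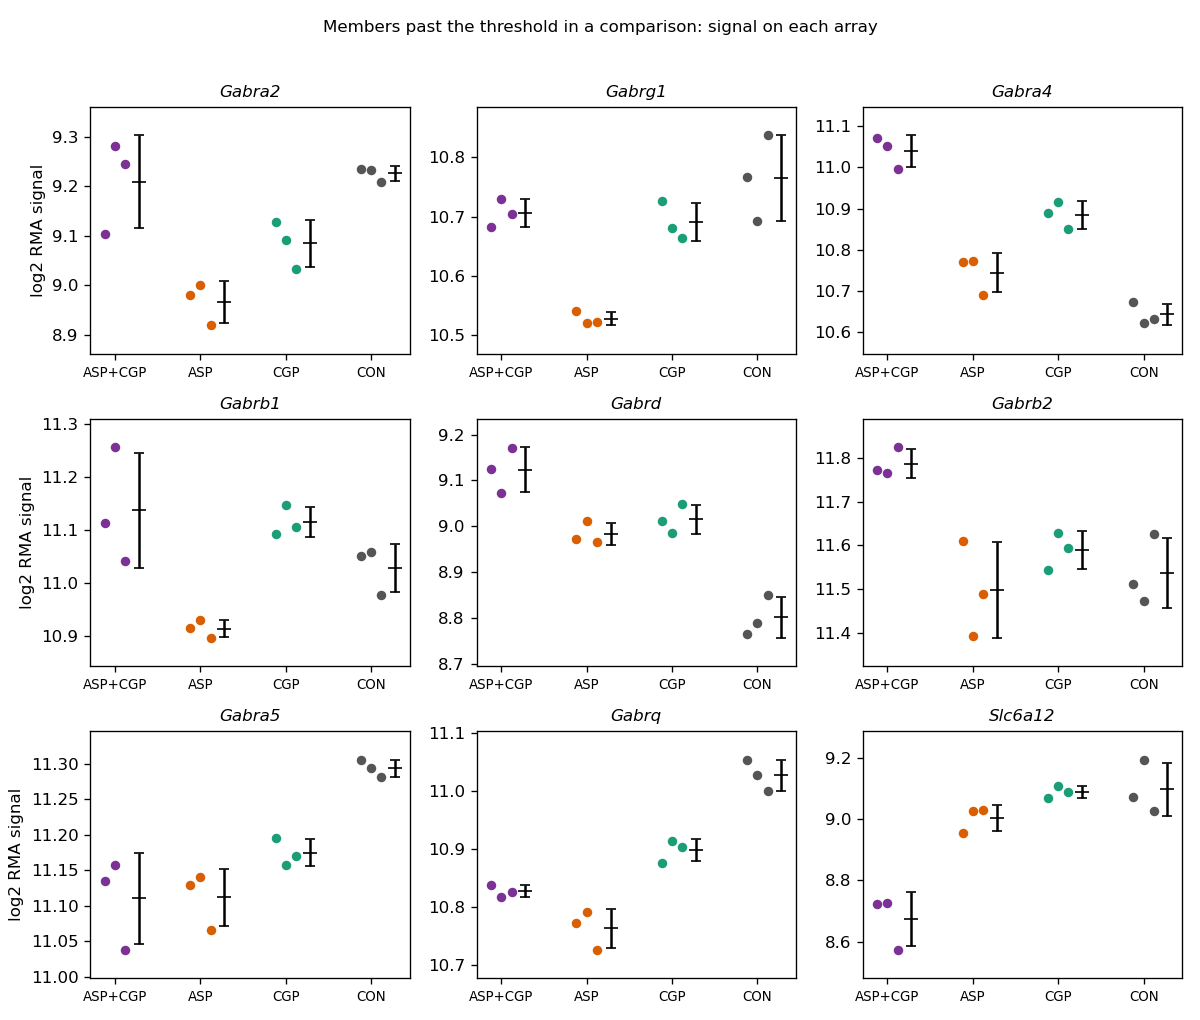
Log2 RMA signal (vertical axis, a scale of its own for each gene) on each of the 3 arrays of the ASP+CGP, ASP, CGP and CON pools for the 9 genes past the threshold. Each point is an array, and the bar beside the points is the mean with its SD (n = 3 arrays). The ASP arrays are the lowest for Gabra2, Gabrg1, Gabrb1 and Gabrq. The ASP+CGP arrays are the highest for Gabra4, Gabrd and Gabrb2, and the ASP+CGP arrays alone are low for Slc6a12.

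Against CON, the ASP pool had 4 members lower (Gabra2, Gabra5, Gabrg1 and Gabrq, against 1.16% of all genes) and 1 higher (Gabrd, against 2.92%). The CGP pool had 2 higher (Gabra4 and Gabrd, against 0.489%) and 0 lower, with 0.14% of all genes lower. The count of 0 is at an adjusted p under 0.05 by limma, and 9 members had an unadjusted p under 0.05 in either direction, while contrasts of an unmoderated linear model put Gabrq past the threshold as lower (-0.13, adjusted p 0.0407). The ASP+CGP pool had 3 higher (Gabra4, Gabrb2 and Gabrd, against 0.826%) and 3 lower (Gabra5, Gabrq and Slc6a12, against 0.919%). The 3 comparisons share the CON arrays. By a looser measure, all 3 arrays of ASP lay above all 3 CON arrays for 3 members (9.93% of all genes) and below them for 11 (13.9%). In CGP they lay above for 6 (12% of all genes) and below for 9 (7.39%), and in ASP+CGP above for 3 (7.15%) and below for 7 (10.2%).

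**Figure D2:**
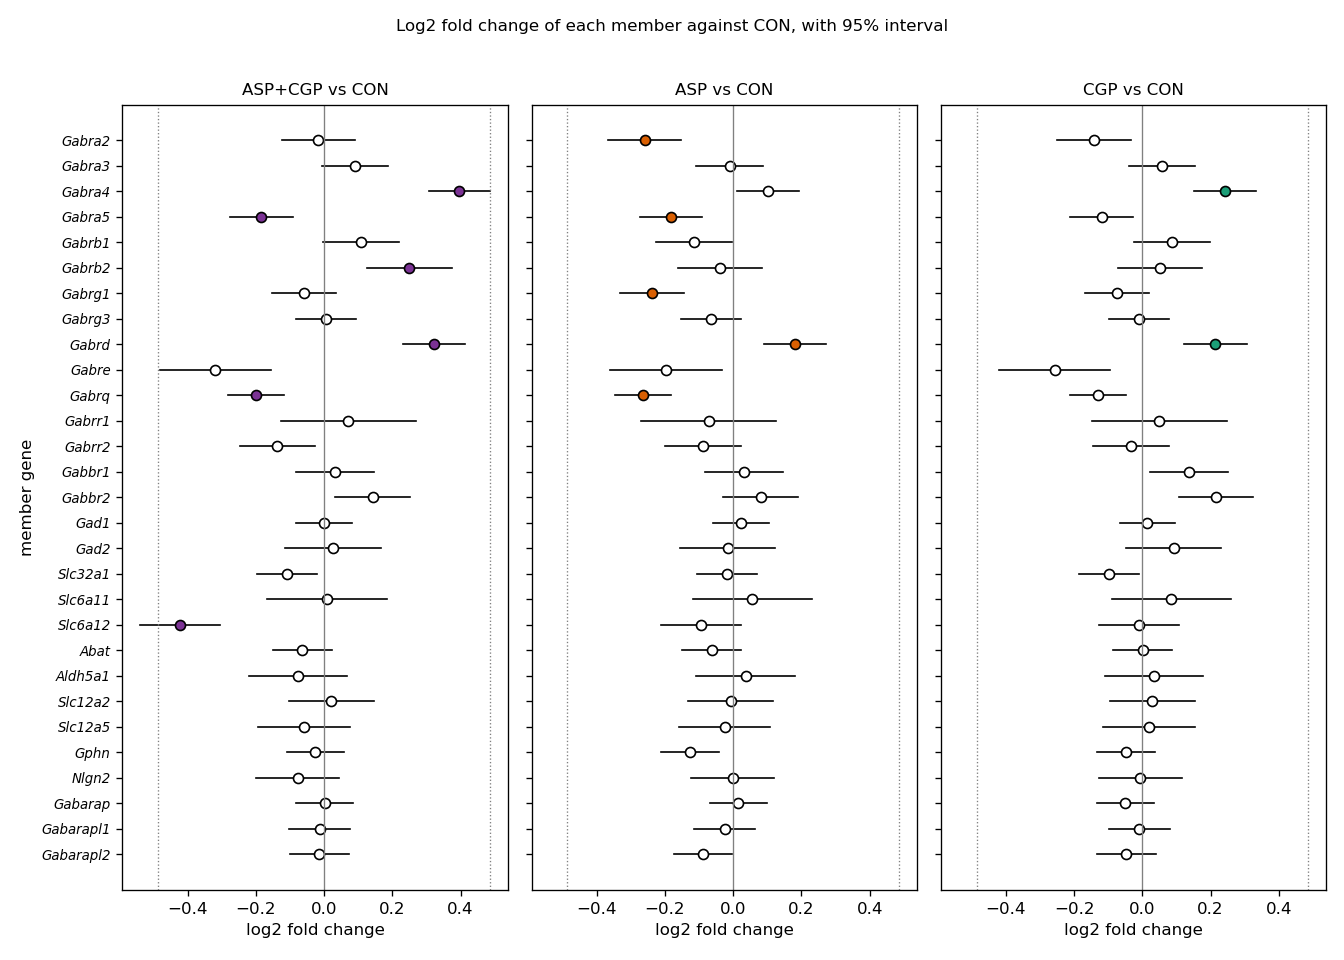
Log2 fold change against CON (horizontal axis) of the 29 member genes (vertical axis) in the ASP+CGP, ASP and CGP pools. Points are the fitted differences, lines their 95% intervals, filled points those with an adjusted p under 0.05, and the dotted lines mark a fold of 1.4. The filled points are GABA-A subunits except for Slc6a12 in ASP+CGP at -0.42, and no point reaches a dotted line.

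Set directly against the ASP pool, ASP+CGP had 5 members higher (Gabra2, Gabra4, Gabrb1, Gabrb2 and Gabrg1, against 2.67% of all genes) and 1 lower (Slc6a12, against 4.25%). Against the CGP pool it had 1 lower, Slc6a12 (0.658% of all genes), and 0 higher (0.32% of all genes), with 5 members at an unadjusted p under 0.05 in either direction by limma. No alternative gave another count in that comparison. The ASP+CGP arrays lay wholly above the ASP arrays for 8 members (14.6% of all genes) and below them for 2 (12.3%), and wholly above the CGP arrays for 4 (7.7%) and below them for 5 (14.8%).

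The genes that make GABA and load it into vesicles passed the threshold in 0 of the comparisons. Gad1, which encodes the decarboxylase GAD67, had log2 signals of 11.72, 11.72 and 11.67 on ASP+CGP arrays, 11.73, 11.74 and 11.72 on ASP arrays, 11.72, 11.73 and 11.71 on CGP arrays and 11.70, 11.74 and 11.68 on CON arrays. All 4 sets overlapped, and the range of the pool means was 0.023. Its difference from CON had a 95% interval of -0.08 to 0.08 in ASP+CGP, -0.06 to 0.10 in ASP and -0.07 to 0.10 in CGP.

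Gad2, the gene of the second decarboxylase GAD65, had signals of 11.36, 11.35 and 11.08 on ASP+CGP arrays, 11.22, 11.22 and 11.22 on ASP arrays, 11.35, 11.34 and 11.30 on CGP arrays and 11.26, 11.30 and 11.16 on CON arrays. The low values in ASP+CGP and CON were those of arrays 3. Without that pair of arrays Gad2 was higher in ASP+CGP than in ASP by 0.13 (adjusted p 0.0308), whereas with all arrays the difference was 0.04 ± 0.07 (SE, adjusted p 0.738).

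Slc32a1, the vesicular transporter VGAT, had signals of 9.93, 9.91 and 9.89 on ASP+CGP arrays, 9.97, 10.03 and 9.99 on ASP arrays, 9.91, 9.95 and 9.89 on CGP arrays and 10.04, 10.05 and 9.96 on CON arrays. Both pools with the antagonist lay below CON on every array. The differences from CON were -0.11 ± 0.04 in ASP+CGP (adjusted p 0.225) and -0.10 ± 0.04 in CGP (adjusted p 0.365), and neither passed the threshold. Of 14 measured genes that supply the precursor glutamate or the vesicle, fixed as a list beside the members, 0 passed against CON in any pool.

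**Figure D3:**
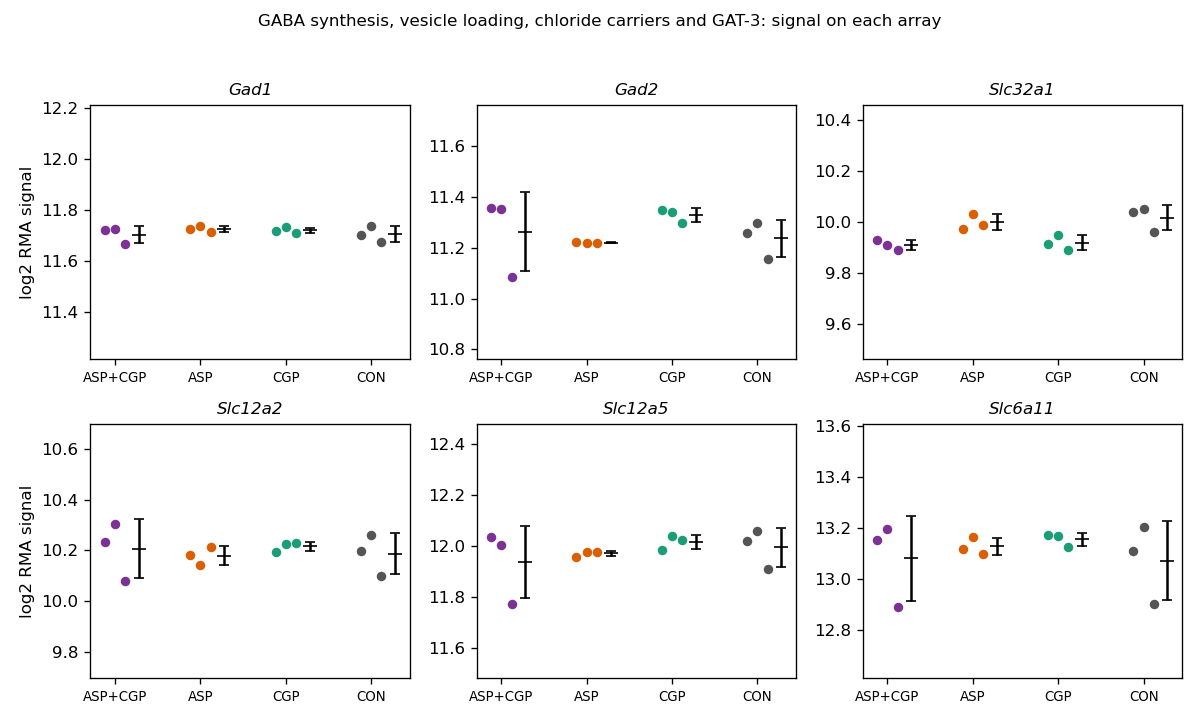
Log2 RMA signal (vertical axis, 1 log2 unit high for every gene) on each array of the ASP+CGP, ASP, CGP and CON pools for Gad1, Gad2, Slc32a1, the chloride carriers Slc12a2 and Slc12a5, and Slc6a11. Points are arrays and bars the mean with SD (n = 3 arrays). Array 3 of ASP+CGP and of CON is the lowest of its pool for each of these genes, as for Gad2 at 11.08 and 11.16, and Gad1 is nearly level across the pools.

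Among the genes that clear and break down GABA, Slc6a12 was the exception. The product BGT-1 carries GABA and the osmolyte betaine. Its signals were 8.72, 8.73 and 8.57 on ASP+CGP arrays, 8.95, 9.03 and 9.03 on ASP arrays, 9.07, 9.11 and 9.09 on CGP arrays and 9.07, 9.19 and 9.03 on CON arrays. The ASP+CGP arrays lay below all other arrays.

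Slc6a12 was lower in ASP+CGP than in CON by a log2 difference of -0.42 ± 0.05 (adjusted p 0.000949), lower than in ASP by -0.33 ± 0.05 (adjusted p 0.00166), and lower than in CGP by -0.41 ± 0.05 (adjusted p 0.00164). All 3 calls held under every alternative run. Without arrays 3 of ASP+CGP and CON all 3 differences still passed. In ASP alone the difference from CON was -0.09 ± 0.05, and in CGP alone -0.01 ± 0.05. The ASP and CGP differences did not add up to that of ASP+CGP (interaction -0.32 ± 0.08, adjusted p 0.0329, with 2.78% of all genes past the threshold in that direction). The interaction no longer passed in 11 of 24 alternatives, among them leaving out array 1 or 3 of CON, any 1 of the CGP arrays, array 2 or 3 of ASP or array 3 of ASP+CGP (-0.33 to -0.27, adjusted p 0.0536 to 0.0887).

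Slc6a13, the transporter GAT-2, is no member and lies next to Slc6a12 on chromosome 6 in the gene order of GRCm38.p6. Its signals were 8.90, 8.96 and 8.97 on ASP+CGP arrays, 9.20, 9.24 and 9.22 on ASP arrays, 9.36, 9.43 and 9.36 on CGP arrays and 9.47, 9.48 and 9.46 on CON arrays. It fell by 0.53 on the log2 scale in ASP+CGP (adjusted p 9.37e-06) and by 0.25 in ASP (adjusted p 0.00165). Slc6a13 is expressed in the meninges, the membranes around the brain, and stands in the list of meningeal markers. Of the 8 markers, 6 were lower in ASP+CGP than in CON, 3 were lower in ASP, and 1 was lower in CGP. Their summed signal was 3210 to 3270 on ASP+CGP arrays, 4230 to 4320 on ASP arrays, 4010 to 4160 on CGP arrays and 4150 to 4290 on CON arrays, and the part of these markers in the Slc6a12 result was not tested.

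The other 3 genes of the group were below the threshold in every comparison. They were Slc6a11, the astrocytic transporter GAT-3, Abat, the GABA transaminase, and Aldh5a1, which completes the breakdown of GABA to succinate. Slc6a11 had signals of 13.15, 13.20 and 12.89 on ASP+CGP arrays and 13.11, 13.21 and 12.90 on CON arrays, and the range of its 4 pool means was 0.0845, so that its arrays differed more within these pools than between them. Astrocyte markers passed the threshold for 0 of 8 genes against CON in any pool.

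The GABA-A subunits held most of the differences, and they moved in both directions. A cluster on chromosome 5 encodes gamma-1 (Gabrg1), alpha-2 (Gabra2), alpha-4 (Gabra4) and beta-1 (Gabrb1), in that order, with 1 protein-coding gene between Gabra2 and Gabra4. The start of Gabra4 and the upstream one of the listed Gabrb1 starts lie 387 bases apart on opposite strands. Gabrb1 has a further window at chr5:71699682-71699931 (GC content 50.8%), not shown. Which start gave the array signal was not tested. All 4 passed the threshold in at least 1 comparison. Their promoter windows, the 250 bases before the start in RefSeq for GRCm38.p6, are shown because these neighbours differed in direction. Capitals mark the GC box GGGCGG and the CCAAT box CCAAT on either strand, the only ones present of 5 motifs searched. The windows lie on chromosome 5 at chr5:70842618-70842867 for Gabrg1, chr5:71095850-71096099 for Gabra2 and chr5:71658309-71658558 for Gabra4, all on the minus strand, and at chr5:71657671-71657920 on the plus strand for the upstream one of the Gabrb1 windows.
Gabrg1: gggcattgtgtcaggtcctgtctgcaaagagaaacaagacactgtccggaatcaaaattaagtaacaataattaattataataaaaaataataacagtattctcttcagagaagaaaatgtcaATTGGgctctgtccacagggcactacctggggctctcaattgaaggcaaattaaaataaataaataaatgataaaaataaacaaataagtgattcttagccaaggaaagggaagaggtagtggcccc
Gabra2: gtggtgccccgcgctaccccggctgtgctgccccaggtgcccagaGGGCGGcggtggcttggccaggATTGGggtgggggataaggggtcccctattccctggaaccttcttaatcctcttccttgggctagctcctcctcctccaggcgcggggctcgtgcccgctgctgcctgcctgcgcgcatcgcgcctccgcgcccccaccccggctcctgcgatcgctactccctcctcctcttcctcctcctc
Gabra4: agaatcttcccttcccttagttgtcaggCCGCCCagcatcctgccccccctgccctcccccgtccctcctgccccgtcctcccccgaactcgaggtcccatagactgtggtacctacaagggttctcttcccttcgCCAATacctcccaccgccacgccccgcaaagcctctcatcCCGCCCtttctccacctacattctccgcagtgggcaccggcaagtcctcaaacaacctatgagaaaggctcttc
Gabrb1: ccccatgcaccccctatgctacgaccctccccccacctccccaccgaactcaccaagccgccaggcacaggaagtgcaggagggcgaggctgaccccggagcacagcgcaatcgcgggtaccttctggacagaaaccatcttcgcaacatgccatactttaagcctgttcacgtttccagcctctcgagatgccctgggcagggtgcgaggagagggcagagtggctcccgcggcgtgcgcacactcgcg

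The Gabrg1 window had a GC content of 35.6%, against 70% for Gabra2, 61.2% for Gabra4 and 64.4% for the upstream Gabrb1 window. The GC box was found in the windows of Gabra2 and Gabra4, and the CCAAT box in those of Gabrg1, Gabra2 and Gabra4. Of all 32851 windows of the same length in the table, 32.7% held a GC box and 33.8% a CCAAT box. Entries were found for 26 of the 29 members, in 35 windows, of which 16 held a GC box and 12 a CCAAT box, 4 the TATA box TATAAA (12.4% of all windows), 1 the E-box CACGTG (6.02%) and 1 the CRE core TGACGT (6.47%), all searched on both strands. A match of letters does not show that a factor binds there.

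Gabra2, whose product forms synaptic receptors, had signals of 9.10, 9.28 and 9.25 on ASP+CGP arrays, 8.98, 9.00 and 8.92 on ASP arrays, 9.13, 9.09 and 9.03 on CGP arrays and 9.24, 9.23 and 9.21 on CON arrays. The ASP arrays were below all others. The gene fell by 0.26 ± 0.05 on the log2 scale in ASP against CON (adjusted p 0.0074), and ASP+CGP was higher than ASP by 0.24 ± 0.05 (adjusted p 0.0087) with a difference from CON of -0.02 ± 0.05 that did not pass. The difference between aspartame and no aspartame was 0.13 with the antagonist (ASP+CGP against CGP) and -0.26 without it (ASP against CON), and the interaction was 0.38 ± 0.07 (adjusted p 0.00603), against 1.23% of all genes past the threshold in that direction. Both the fall in ASP and the interaction held in every alternative. The rise over ASP was lost without the third ASP array (0.22, adjusted p 0.0509).

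Gabrg1 followed a like order. Its signals were 10.68, 10.73 and 10.70 on ASP+CGP arrays, 10.54, 10.52 and 10.52 on ASP arrays, 10.73, 10.68 and 10.66 on CGP arrays and 10.77, 10.69 and 10.84 on CON arrays. The ASP arrays were below all other arrays, and the other 3 sets overlapped. Gabrg1 fell by 0.24 ± 0.04 in ASP against CON (adjusted p 0.00499), a call that every alternative kept. ASP+CGP was higher than ASP by 0.18 ± 0.04 (adjusted p 0.0242), which was lost on leaving out any ASP array or the second ASP+CGP array (adjusted p 0.0561 to 0.0855). The interaction was 0.25 ± 0.06 (adjusted p 0.0355), and it no longer passed in 11 of 24 alternatives, among them leaving out array 1 or 3 of CON, any 1 of the CGP or ASP arrays, or array 1 or 2 of ASP+CGP (adjusted p 0.0512 to 0.105).

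Gabra4, whose product pairs with delta in receptors outside synapses, went the other way. Its signals were 11.07, 11.05 and 11.00 on ASP+CGP arrays, 10.77, 10.77 and 10.69 on ASP arrays, 10.89, 10.92 and 10.85 on CGP arrays and 10.67, 10.62 and 10.63 on CON arrays. No pool overlapped another, in the order ASP+CGP, CGP, ASP and CON. Gabra4 was 1.32-fold higher in ASP+CGP than in CON (0.40 ± 0.04, adjusted p 0.000171) and 0.30 ± 0.04 higher than in ASP (adjusted p 0.000464), and both calls held in every alternative. It was 0.24 ± 0.04 higher in CGP than in CON (adjusted p 0.016), which was lost without the second CON array or any 1 of the CGP arrays (adjusted p 0.0522 to 0.0903). In ASP alone the difference was 0.10 ± 0.04, short of the threshold.

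Gabrb1 has the upstream one of its listed starts beside that of Gabra4. Its signals were 11.11, 11.26 and 11.04 on ASP+CGP arrays, 10.91, 10.93 and 10.90 on ASP arrays, 11.09, 11.15 and 11.11 on CGP arrays and 11.05, 11.06 and 10.98 on CON arrays. Again the ASP arrays lay lowest. ASP+CGP was higher than ASP by 0.22 ± 0.05 (adjusted p 0.0181). The call was lost without the second ASP+CGP array, the one at 11.26 (0.16, adjusted p 0.0661), or without any 1 of the ASP arrays (adjusted p 0.0526 to 0.0748).

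Gabrd, the delta subunit of receptors outside synapses, was the member that passed against CON in all 3 treated pools. Its signals were 9.13, 9.07 and 9.17 on ASP+CGP arrays, 8.97, 9.01 and 8.96 on ASP arrays, 9.01, 8.98 and 9.05 on CGP arrays and 8.76, 8.79 and 8.85 on CON arrays. The CON arrays were below all others and the ASP+CGP arrays above all others. Gabrd rose by 0.32 ± 0.04 in ASP+CGP (adjusted p 0.00114), 0.18 ± 0.04 in ASP (adjusted p 0.027) and 0.21 ± 0.04 in CGP (adjusted p 0.0371). The first held in every alternative. The second was lost without the first or second CON array or any 1 of the ASP arrays (adjusted p 0.0695 to 0.113), and the third in 11 of 25 alternatives, among them leaving out array 1 or 2 of CON, any 1 of the CGP or ASP arrays, or array 1 of ASP+CGP (adjusted p 0.0591 to 0.208). The difference of ASP+CGP from ASP, 0.14 ± 0.04 (adjusted p 0.0653), passed in 4 of 25 alternatives.

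Gabrb2, the beta-2 subunit, was read by 3 probe sets. The brightest of them had signals of 11.77, 11.77 and 11.82 on ASP+CGP arrays, 11.61, 11.39 and 11.49 on ASP arrays, 11.54, 11.63 and 11.59 on CGP arrays and 11.51, 11.47 and 11.63 on CON arrays. The ASP+CGP arrays were above all others, and the other sets overlapped. ASP+CGP was higher than ASP by 0.29 ± 0.06 (adjusted p 0.00669), kept in every alternative, and higher than CON by 0.25 ± 0.06 (adjusted p 0.0453), lost in 12 of 26 alternatives, among them leaving out array 1 or 2 of CON, array 3 of ASP, or any 1 of the CGP or ASP+CGP arrays (adjusted p 0.0661 to 0.168).

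When all probe sets were tested and adjusted together, the 3 Gabrb2 probe sets ran in 1 direction. Probe set 10375245 was higher in ASP+CGP than in CON by 0.23 (adjusted p 0.0175) and than in ASP by 0.24 (adjusted p 0.00383). Probe set 10375259 was higher by 0.42 (adjusted p 0.0253) and by 0.33 (adjusted p 0.0345), with array 3 of ASP+CGP at 10.80, against 11.12 and 11.09 on the other arrays of the pool. Probe set 10375261, the one used above, was higher by 0.25 (adjusted p 0.091) and by 0.29 (adjusted p 0.0226). For 10375245 the CGP arrays, at 11.67, 11.65 and 11.63, also lay above the CON arrays at 11.43, 11.45 and 11.50 (0.19, adjusted p 0.08).

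**Figure D4:**
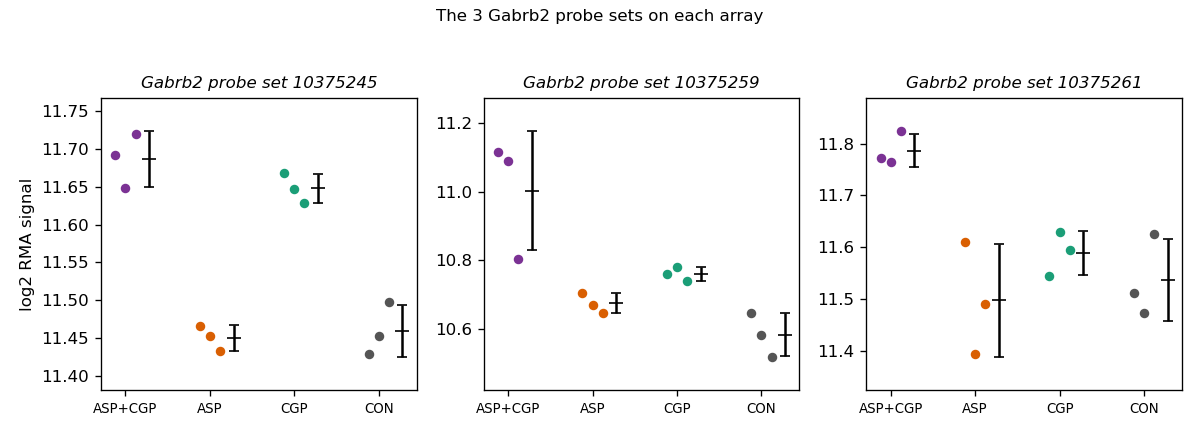
Log2 RMA signal (vertical axis, a scale of its own for each panel) of the 3 probe sets assigned to Gabrb2 on each array of the ASP+CGP, ASP, CGP and CON pools. Points are arrays and bars the mean with SD (n = 3 arrays). ASP+CGP has the highest mean in each panel, and the CGP arrays of probe set 10375245 (11.63 to 11.67) lie with ASP+CGP and not with CON.

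Receptors built from alpha-4, beta and delta subunits are known from thalamic relay neurons, so thalamic markers are given beside Gabra4, Gabrb2 and Gabrd. Of 12 markers, all measured, 10 were higher in ASP+CGP than in CON, 8 in ASP and 9 in CGP. Their summed signal was 20900 to 21100 on ASP+CGP arrays, 19100 to 19200 on ASP arrays, 20700 to 20900 on CGP arrays and 17500 to 18200 on CON arrays. Prkcd, a kinase abundant in the thalamus, was higher by 0.47 ± 0.04 in ASP+CGP (adjusted p 5.52e-05), 0.33 ± 0.04 in ASP (adjusted p 0.000278) and 0.42 ± 0.04 in CGP (adjusted p 0.000243). Markers of the habenula, a nucleus above the thalamus, were higher for 4 of 9 genes in ASP+CGP, 4 in ASP and 7 in CGP. Of 6 measured striatal markers, 2 were higher than CON in ASP+CGP, 0 in ASP and 0 in CGP. The part of these lists in the 3 receptor genes was not tested.

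Gabra6, the alpha-6 subunit of cerebellar granule cells, is no member and lies next to Gabrb2 on chromosome 11. It had signals of 6.43, 6.50 and 6.55 on ASP+CGP arrays, 5.83, 5.71 and 5.96 on ASP arrays, 5.92, 6.07 and 5.89 on CGP arrays and 5.85, 5.84 and 6.16 on CON arrays. It was higher in ASP+CGP than in CON by a log2 difference of 0.54. Outside ASP+CGP it reached the filter signal of 6 only on array 2 of CGP and array 3 of CON. It thus passed the filter only through the ASP+CGP arrays, and the difference is given without a test. Of 12 cerebellar granule cell markers, 5 were higher in ASP+CGP, 1 in ASP and 1 in CGP. The count for ASP+CGP holds Gabra6, which could enter only by being high there, so it was in part fixed by the filter. Their summed signal was 8970 to 10200 on ASP+CGP arrays, 9130 to 9270 on ASP arrays, 9670 to 9780 on CGP arrays and 8180 to 8790 on CON arrays. The sum was thus above CON in every treated pool. The part of these markers in the Gabrb2 and Gabrd results was not tested.

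Gabra5 and Gabrq passed the threshold as lower than CON in both aspartame pools. Every CGP array was also below CON for both, with differences of -0.12 ± 0.04 (adjusted p 0.283) and -0.13 ± 0.04 (adjusted p 0.187) that did not pass. The differences of ASP+CGP from CGP were -0.06 ± 0.04 (adjusted p 0.528) and -0.07 ± 0.04 (adjusted p 0.422). Gabra5, an alpha subunit best known from the hippocampus, had signals of 11.14, 11.16 and 11.04 on ASP+CGP arrays, 11.13, 11.14 and 11.07 on ASP arrays, 11.20, 11.16 and 11.17 on CGP arrays and 11.31, 11.29 and 11.28 on CON arrays. All arrays of the treated pools were below the CON arrays. The difference was -0.18 ± 0.04 in ASP+CGP (adjusted p 0.0481) and -0.18 ± 0.04 in ASP (adjusted p 0.0274). The call in ASP+CGP was lost in 16 of 26 alternatives, also without any 1 of the 12 arrays (adjusted p 0.0531 to 0.15) and without both arrays 3 (-0.15, adjusted p 0.058), and that in ASP without the first or second CON array or any 1 of the ASP arrays (adjusted p 0.058 to 0.134).

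Gabrq, the theta subunit, which is expressed in the hypothalamus and in monoamine cell groups, had signals of 10.84, 10.82 and 10.83 on ASP+CGP arrays, 10.77, 10.79 and 10.73 on ASP arrays, 10.88, 10.91 and 10.90 on CGP arrays and 11.05, 11.03 and 11.00 on CON arrays. No pool overlapped another, in the order CON, CGP, ASP+CGP and ASP. The gene fell by 0.20 ± 0.04 in ASP+CGP (adjusted p 0.0146) and by 0.26 ± 0.04 in ASP (adjusted p 0.000654). The call in ASP held in every alternative, and that in ASP+CGP was lost without the first or second CON array or the first or second ASP+CGP array (adjusted p 0.0519 to 0.0744). The interaction of Gabrq passed in 4 of 24 alternatives, among them the fit without both arrays 3 (0.21, adjusted p 0.041).

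Gabre, the epsilon subunit, encoded in the same X chromosome cluster as Gabra3 and Gabrq, had signals of 10.05, 9.98 and 9.72 on ASP+CGP arrays, 10.00, 10.04 and 10.06 on ASP arrays, 9.96, 9.92 and 10.05 on CGP arrays and 10.23, 10.34 and 10.13 on CON arrays. Every treated array was below the CON arrays. The differences from CON were -0.32 ± 0.08 in ASP+CGP (adjusted p 0.0514), -0.20 ± 0.08 in ASP (adjusted p 0.197) and -0.26 ± 0.08 in CGP (adjusted p 0.189), and none passed the threshold. In ASP+CGP the gene passed in 8 of 26 alternatives (adjusted p 0.0054 to 0.0472), among them both stricter filters on signal, leaving out array 3 of CON (-0.37) or array 1 of ASP+CGP (-0.39), and pairing the ASP+CGP and CON arrays by number. Without both arrays 3 it was lower than CON in all 3 treated pools, with differences of -0.27 in ASP+CGP (adjusted p 0.023), -0.25 in ASP (adjusted p 0.0144) and -0.31 in CGP (adjusted p 0.0151), and its interaction passed (0.28, adjusted p 0.0471). Without array 3 of ASP+CGP alone it also passed in CGP (-0.26, adjusted p 0.0445). Hypothalamic markers were lower than CON for 6 of 17 genes and higher for 0 in ASP+CGP. They were lower for 7 and higher for 2 (Pomc and Nr5a1) in ASP, and lower for 4 and higher for 1 (Pomc) in CGP. Their part in the values of Gabra5, Gabrq and Gabre was not tested. Nr5a1 was higher than CON only in ASP (0.61), where all 10 adrenal cortex markers were also higher. Among those 10, Hsd3b1 passed the signal filter only through the ASP arrays. The part of the adrenal cortex list in the Nr5a1 value was not tested.

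The remaining GABA-A subunits, Gabra3 (alpha-3) and Gabrg3 (gamma-3), passed in no comparison, and their pool means ranged over 0.10 and 0.07. Without array 3 of ASP+CGP, Gabra3 was higher in ASP+CGP than in ASP by 0.15 (adjusted p 0.0458, and 0.0257 without both arrays 3). Gabra5 and Gabrg3, neighbours on chromosome 7, had differences from CON in ASP+CGP of -0.18 and 0.01. The GABA-rho subunits Gabrr1 and Gabrr2, known from the retina, also passed in none, with differences between pools of -0.14 to 0.14 and intervals of -0.27 to 0.34. Without array 3 of ASP+CGP, Gabrr2 was lower in ASP+CGP than in CON (-0.19, adjusted p 0.0377), as it was without both arrays 3 (-0.19, adjusted p 0.0447). Of the 8 listed subunits and transporters that are not members, 3 were measured, and Gabrr3 passed in no comparison with CON (-0.10 ± 0.06 in ASP+CGP).

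The GABA-B receptor is an obligate dimer of the products of Gabbr1 and Gabbr2. Gabbr2 had signals of 12.26, 12.30 and 12.12 on ASP+CGP arrays, 12.12, 12.21 and 12.17 on ASP arrays, 12.28, 12.31 and 12.31 on CGP arrays and 12.08, 12.13 and 12.04 on CON arrays. The CGP arrays were above the CON arrays, by 0.22 ± 0.05 (adjusted p 0.0921). Gabbr1, at 12.93, 12.92 and 12.94 on CGP arrays and 12.82, 12.85 and 12.71 on CON arrays, was higher by 0.14 ± 0.05 (adjusted p 0.329). Neither passed the threshold in any comparison. Gabbr2 passed for CGP against CON in 5 of 25 alternatives (0.19 to 0.26, adjusted p 0.0228 to 0.0428), among them the fits without array 3 of ASP+CGP and without both arrays 3, and in the same fits it was higher in ASP+CGP than in CON (0.20, adjusted p 0.0369, and 0.18, adjusted p 0.0465). Of 8 genes for GABA-B auxiliary subunits and the GIRK potassium channels that the receptor opens, 0 passed in any comparison.

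The chloride carriers NKCC1 (Slc12a2), which loads neurons with chloride, and KCC2 (Slc12a5), which extrudes it, passed in no comparison. Slc12a2 had signals of 10.23, 10.31 and 10.08 on ASP+CGP arrays, 10.18, 10.14 and 10.21 on ASP arrays, 10.19, 10.22 and 10.23 on CGP arrays and 10.20, 10.26 and 10.10 on CON arrays. Slc12a5 had 12.03, 12.00 and 11.77 on ASP+CGP arrays, 11.96, 11.98 and 11.98 on ASP arrays, 11.99, 12.04 and 12.02 on CGP arrays and 12.02, 12.06 and 11.91 on CON arrays. Over all arrays the sets overlapped, except that the CGP arrays lay above the ASP arrays for Slc12a5, and arrays 3 of ASP+CGP and CON were low for both genes. On the remaining arrays, ASP+CGP lay above ASP for both genes and above CGP for Slc12a2, and CON lay above ASP for Slc12a5, although no difference passed without the pair. Differences between pools were -0.08 to 0.03 and their intervals -0.21 to 0.15, so a 1.4-fold difference between these pools lay outside them. The intervals hold the spread between arrays only, so they cannot exclude such a change among mice. Of 12 measured genes of chloride balance, 0 passed against CON in any pool, near the share of all genes (0.14% to 2.92% in 1 direction). In ASP+CGP against ASP, 1 was higher (2.67% of all genes) and 2 were lower (4.25%).

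Gphn, the scaffold gephyrin that holds GABA-A and glycine receptors at the synapse, had signals of 10.74, 10.73 and 10.82 on ASP+CGP arrays, 10.67, 10.64 and 10.68 on ASP arrays, 10.74, 10.75 and 10.74 on CGP arrays and 10.79, 10.77 and 10.81 on CON arrays. As for Gabra2, Gabrg1, Gabrb1 and Gabrq, the ASP arrays lay lowest. How many of all genes had this order was not counted. The difference from CON was -0.13 ± 0.04 (adjusted p 0.099), short of the threshold, and passed without array 3 of ASP+CGP (adjusted p 0.0472) and under the unmoderated model (adjusted p 0.0253). Nlgn2, the adhesion protein neuroligin-2 of inhibitory synapses, had differences from CON of -0.08 in ASP+CGP, 0.00 in ASP and -0.01 in CGP. Of 20 measured genes of the inhibitory postsynapse and of receptor trafficking, 0 passed in any comparison.

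The GABARAP family carries receptors to the membrane and serves in autophagy. Gabarap, Gabarapl1 and Gabarapl2 passed in no comparison, with differences between pools of -0.09 to 0.08 and intervals of -0.17 to 0.16. Of 18 measured genes of ATG8 conjugation and autophagy, 0 passed against CON, near the share of all genes (0.14% to 2.92% in 1 direction). Tax1bp1 alone was higher in ASP+CGP than in ASP (0.22 ± 0.05, adjusted p 0.0183), where 2.67% of all genes were higher.

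Among 13 measured transcription factors of GABAergic neurons, 4 were higher in ASP than in CON (2.92% of all genes), with Gata3 at 0.43 ± 0.07 (adjusted p 0.00227), Lhx8 at 0.32 ± 0.04 (adjusted p 0.00036), Meis2 at 0.32 ± 0.05 (adjusted p 0.00212) and Lhx6 at 0.26 ± 0.05 (adjusted p 0.0137). Only 5 of the 13 were above 0 in ASP (median -0.01). In CGP 1 was lower, Dlx6 (-0.31 ± 0.05, adjusted p 0.00807), and in ASP+CGP 1 was higher, Lhx8 (0.23 ± 0.04, adjusted p 0.0152).

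Among 13 markers of GABAergic neuron types, 3 were above 0 in ASP against CON (median -0.08), 3 in CGP (median -0.10) and 7 in ASP+CGP (median 0.00). Npy, the neuropeptide of feeding neurons that also release GABA, was lower than CON in ASP+CGP (-0.42 ± 0.09, adjusted p 0.0232) and higher in ASP by 0.54 ± 0.09 (adjusted p 0.00146). Th, the tyrosine hydroxylase of catecholamine synthesis, which also stands in the adrenal medulla list, was higher in ASP by 0.66 ± 0.07 (adjusted p 3.16e-05), and Penk, the precursor of enkephalins, was lower in CGP (-0.26 ± 0.04, adjusted p 0.0114). No other marker of this list passed against CON. All 6 adrenal medulla markers, Th among them, were higher than CON in ASP. The part of the adrenal medulla list in the ASP values of Npy and Gata3 was not tested. Pan-neuronal markers passed for 0 of 8 genes against CON in any pool, near the share of all genes (0.14% to 2.92% in 1 direction).

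**Figure D5:**
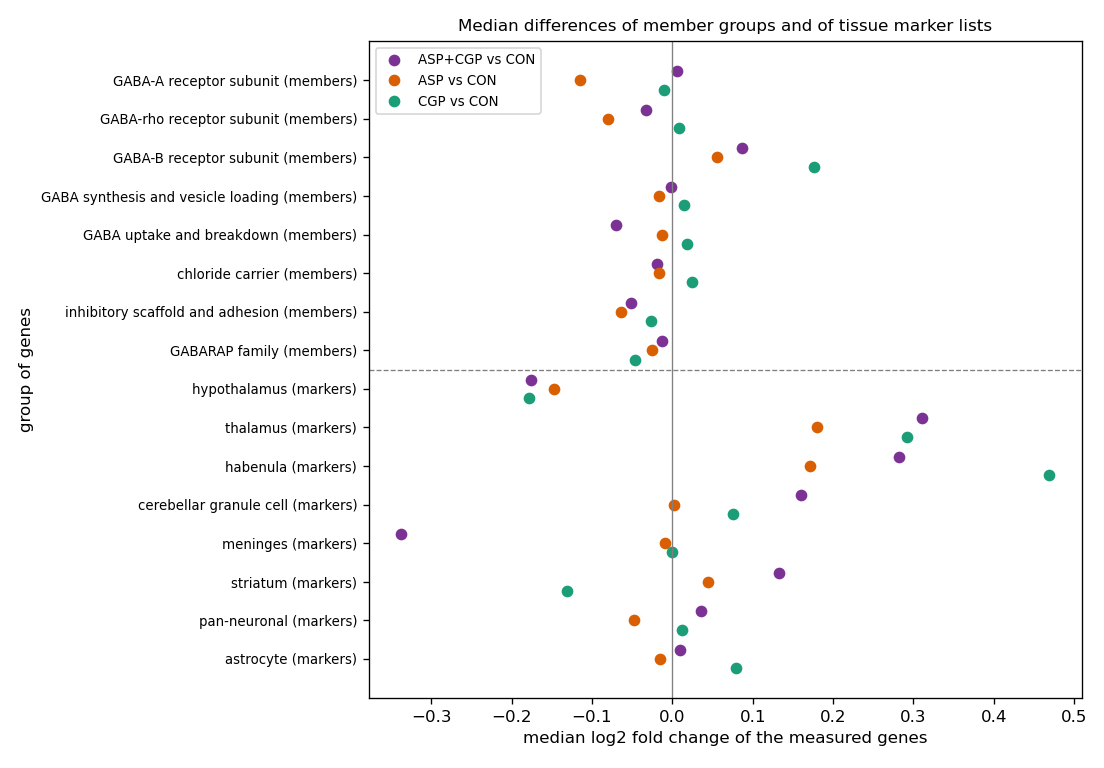
Median log2 fold change against CON (horizontal axis) of the measured genes in the 8 groups of members and in 8 marker lists (vertical axis), for ASP+CGP, ASP and CGP. Each point is a median over genes, with no error shown. The median of the 11 GABA-A subunits is 0.01 in ASP+CGP, -0.11 in ASP and -0.01 in CGP, while the medians of the thalamus list are 0.31 in ASP+CGP, 0.18 in ASP and 0.29 in CGP.

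By groups, the median difference from CON of the 11 GABA-A subunits was 0.01 in ASP+CGP, -0.11 in ASP and -0.01 in CGP, beside 0.00 in ASP+CGP, -0.01 in ASP and 0.01 in CGP over all genes tested. In ASP+CGP against ASP it was 0.14, beside 0.01 over all genes. The near-zero median in ASP+CGP joined 3 subunits that were higher and 2 that were lower.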

How the data were processed

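Hypothalamic RNA, pooled within a group, was read on 12 Affymetrix Mouse Gene ST arrays, 3 technical repeats for each of ASP+CGP, ASP, CGP and CON. Groups and replicate numbers came from the sample labels. The deposited values are log2 signals that the authors made with RMA in Partek, in which quantile normalization removes any change that moves most genes one way and background understates the change of dim genes. Of 29149 probe sets, 19019 had 1 gene symbol in the platform annotation, 1197 had several and 8933 had none. Genes were named from single-symbol probe sets only. A probe set had to reach 6 on 3 or more arrays (18810 did), and a gene took its brightest one, which left 17186 genes. All 29 member identifiers matched the RefSeq table of GRCm38.p6.

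Differences were fitted with lmFit and eBayes of limma 3.58.1 (R 4.3.3) over all 12 arrays with a mean per group, as in the study's ANOVA with contrasts, with 8 residual and 5.43 prior degrees of freedom. P-values were Benjamini-Hochberg adjusted over all genes in each comparison, and the threshold was 0.05. Values after ± are standard errors for differences and SDs in plots, and a fold is an antilog of the log2 difference. The interaction is the ASP+CGP minus CGP difference less the ASP minus CON difference. Exact permutation of 3 against 3 arrays has a smallest two-sided p of 0.1 and was not used for single genes. The fit was tested on simulated data. Summed signals are sums of antilogs over a list.

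The members and lists were chosen with earlier results of these data known. Array values are given for members past the threshold, for Gad1, Gad2, Slc32a1, Slc12a2 and Slc12a5, and, chosen after their values were seen, for Gabre, Gphn, Gabbr1, Gabbr2 and Slc6a11. From each other list up to 3 genes with the largest difference from CON were named, with Gabrr3, Lhx6, Dlx6 and Tax1bp1 added after their values were seen. Alternatives were other signal filters, the mean over probe sets, all probe sets together, further normalization, other tests, fits of 2 groups alone, another adjustment, the replicate number as a block, each array left out, arrays 3 of ASP+CGP and CON left out together and, added after seeing the data, the replicate number as a block for the ASP+CGP and CON arrays only, since the deviations of all 3 same-numbered pairs of these pools correlated at over 0.1.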

Additional observations from a re-analysis of the deposited data

Results flagged for a closer look

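Of the 29 genes, 3 had a difference between aspartame and no aspartame that itself differed with the antagonist (limma interaction, adjusted over all genes), with 1.23% of all genes past that threshold as higher and 2.78% as lower. For Gabra2 the interaction was 0.385 ± 0.071 on the log2 scale (adjusted p 0.00603), with a difference of 0.13 for ASP+CGP against CGP and of -0.26 for ASP against CON, and it held in all 24 alternatives. For Gabrg1 it was 0.2533 ± 0.0617 (adjusted p 0.0355), with 0.02 for ASP+CGP against CGP and -0.24 for ASP against CON, and 11 of 24 alternatives lost the call. For Slc6a12 it was -0.3191 ± 0.0766 (adjusted p 0.0329), with -0.41 for ASP+CGP against CGP and -0.09 for ASP against CON, and 11 of 24 alternatives lost the call, among them the fit without arrays 3 of ASP+CGP and CON (-0.23, adjusted p 0.064). Each group was 1 pool of RNA, so the spread behind these values is that between arrays.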

How the results depend on the processing

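No member passed 1.4-fold in any comparison under any alternative, and no difference that passed the threshold changed sign. Of 23 passing differences of single members, 11 passed under every alternative. When all probe sets were tested together, 1 member passed for CGP against CON and 1 for the interaction, against 2 and 3 in the text. In fits of the 2 groups alone, 3 members passed in ASP, 0 in CGP and 3 in ASP+CGP against CON, with fewer arrays behind the spread. Without arrays 3 of ASP+CGP and CON, 4 passed for CGP against CON (Gabre and Gabbr2 besides the 2 of the text) and 8 for ASP+CGP against CON (Gabre, Gabrr2 and Gabbr2 gained, Gabra5 lost).

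With each array left out in turn, the count ranged from 3 to 6 for ASP against CON, 0 to 4 for CGP against CON, 3 to 6 for ASP+CGP against CON, 3 to 7 for ASP+CGP against ASP, 1 to 1 for ASP+CGP against CGP, 1 to 3 for the interaction and 4 to 10 for the F test. The 0 for CGP against CON arose without the second CON array and without any 1 of the CGP arrays. The cause of these changes was not tested.

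Same-numbered arrays of different pools correlated over 0.1 in their deviations for 6 of 18 pairs (-0.106 to 0.541), and 5 of 12 arrays were closest to their own number. Between ASP+CGP and CON all 3 pairs did (0.17 to 0.541), and with the block for these 2 pools only, 7 members passed for ASP+CGP against CON, the 6 of the text and Gabre (-0.32, adjusted p 0.0054). With the replicate block over all pools, 5 members passed for ASP, 2 for CGP and 6 for ASP+CGP against CON, 6 for ASP+CGP against ASP, 1 against CGP and 3 for the interaction, the same members as without it. Further normalization moved the median of all genes by at most 0.0218. Precision is limited by 3 arrays a pool and 1 pool a group.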
